A study of Mus musculus with 8 samples.

Results

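The DNA replication machinery was examined in macrophages from the fat of obese mice, as 46 genes listed by symbol for their roles in origin licensing, the replicative helicase, the polymerases, nucleotide supply and the packaging of new DNA. All 46 were found among the 15867 genes of the deposited table of normalised counts, and all 46 passed the filter on low values. The knockout group had loxP-flanked alleles of the microRNA clusters Mirc11 and Mirc22 on both chromosomes (fl/fl) and the Lyz2-Cre knock-in on both Lyz2 alleles (Cre/Cre), which drives Cre recombinase in myeloid cells. The control group carried the same loxP-flanked alleles, with wild-type Lyz2 and no Cre. Each group had 4 biological replicates, all from mice fed a high-fat diet for 20 weeks. The RNA came from primary cells of obese adipose tissue that were selected for F4/80, a surface protein of macrophages. Loss of the clusters, the presence of Cre and loss of Lyz2 came together, with no sample that had Cre and intact clusters, so these cannot be told apart. Whether a replicate is 1 mouse is not stated in the labels, and p-values reflect the spread between samples, which may be technical. The title of the series concerns the miR-23-27-24 clusters and the proliferation of lipid-associated macrophages, and the comparison asks whether transcripts of DNA replication differ when the clusters are deleted.

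Before a cell divides, the origin recognition complex and its partners Cdc6 and Cdt1 load the ring-shaped MCM helicase onto DNA, and geminin then blocks a second loading. Kinases, Mcm10, Cdc45 and the GINS complex turn the ring into an active helicase, and polymerases tied down by the PCNA clamp copy both strands while the RPA complex covers single-stranded DNA. Transcripts of this machinery are made mostly in late G1 and S phase, largely under E2F transcription factors, so in mixed tissue they usually follow the share of cycling cells. Macrophages of obese fat are known to divide locally as well as to arrive as monocytes. In bulk samples such as these, fewer cycling cells and less RNA per cell cannot be told apart.

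The labels and libraries were checked before the comparison. Lyz2, which carries the knock-in, measured 273, 174, 201 and 184 normalised counts in knockout replicates 1 to 4 and 182286, 156727, 159627 and 204853 in control replicates 1 to 4, so all 8 libraries matched their labels at this gene. The microRNAs of the clusters were not analysed here. Recovered totals ran from 31789395 to 46621080 reads per library, the highest in control replicate 1. The macrophage markers were abundant in all 8 libraries, with Adgre1, the gene of F4/80, at 37439.8 to 43035 in the knockout and 39565 to 54126 in the control libraries. All 9 macrophage markers other than Lyz2 had negative differences, knockout minus control, with a median log2 difference of -0.41. In limma 4 were called lower at an adjusted p under 0.05, where 3.61% of all genes tested were called in either direction. The deletion removes microRNAs of 3 families, shown here by the bases 2 to 8 that pair with targets, in capitals, as given by RefSeq on GRCm38.p6.
miR-23a-3p: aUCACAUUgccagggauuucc
miR-27a-3p: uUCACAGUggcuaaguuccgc
miR-27b-3p: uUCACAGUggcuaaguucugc
miR-24-3p: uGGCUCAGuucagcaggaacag
The first lies at chr8:84208563-84208583 and the second at chr8:84208727-84208747, both in Mirc11. In Mirc22 the third lies at chr13:63300760-63300780, and the fourth is made by both clusters. Both miR-27 sequences share their seed and differ near the 3′ end.

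Of the 46 replication genes, 0 passed limma with Benjamini-Hochberg adjustment over 15862 genes at 0.05, where 573 genes, or 3.61%, did across the transcriptome (196 higher and 377 lower). Most transcripts lay within a narrow band: the log2 differences, knockout minus control of log2(normalised count + 1), ran from -0.22 for the helicase subunit Mcm3 to 0.43 for Rpa3, the smallest subunit of the single-strand binding complex. Rpa3 was the one member whose 4 knockout values all lay above its 4 control values. A single control library, replicate 1, held the highest value of all 8 for 36 of the 46 genes.

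At an unadjusted p under 0.05 there were 3 members (Rpa3, Mcm3 and Orc6), or 6.52%, against 21.2% of all genes tested. Groups that do not overlap were found for 1 member, or 2.17%, against 13.7% of all genes. The authors' deposited table called 1 member, Rpa3, at an adjusted p under 0.05, where it called 10.9% of the genes with an adjusted p. Each of these member shares lay below its background. edgeR on the recovered reads called 0 members and DESeq2 called 1, Rpa3. DESeq2 on the recovered reads repeats the authors' own method, with 1557 genes called in each, so its Rpa3 call adds nothing to theirs. The difference was positive for 12 members and negative for 34, with a median of -0.06, beside 0.00 over all genes tested. That median depended on the libraries and the scaling used. Without control replicate 1 the median was 0.02, with 27 positive and 19 negative differences and 0 members called. Over the other 7 omissions of 1 library it ran from -0.10 (without control replicate 4) to -0.03 (without knockout replicate 1). With equal library totals and control replicate 1 kept, it was -0.001.

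The intervals say how large a difference these libraries could hide. The 95% intervals of all 46 members lay within 2-fold, and those of 44 lay within 1.5-fold in either direction, the exceptions being Rpa3 and Orc1. The outermost bounds on the log2 scale were -0.54 and 0.73. For 32 of the 46 genes the difference was smaller than the pooled standard deviation within groups. Standard deviations of members on the log2 scale had medians of 0.15 in the knockout and 0.16 in the control group, against 0.14 in the knockout and 0.15 in the control group over all genes tested.

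**Figure D1:**
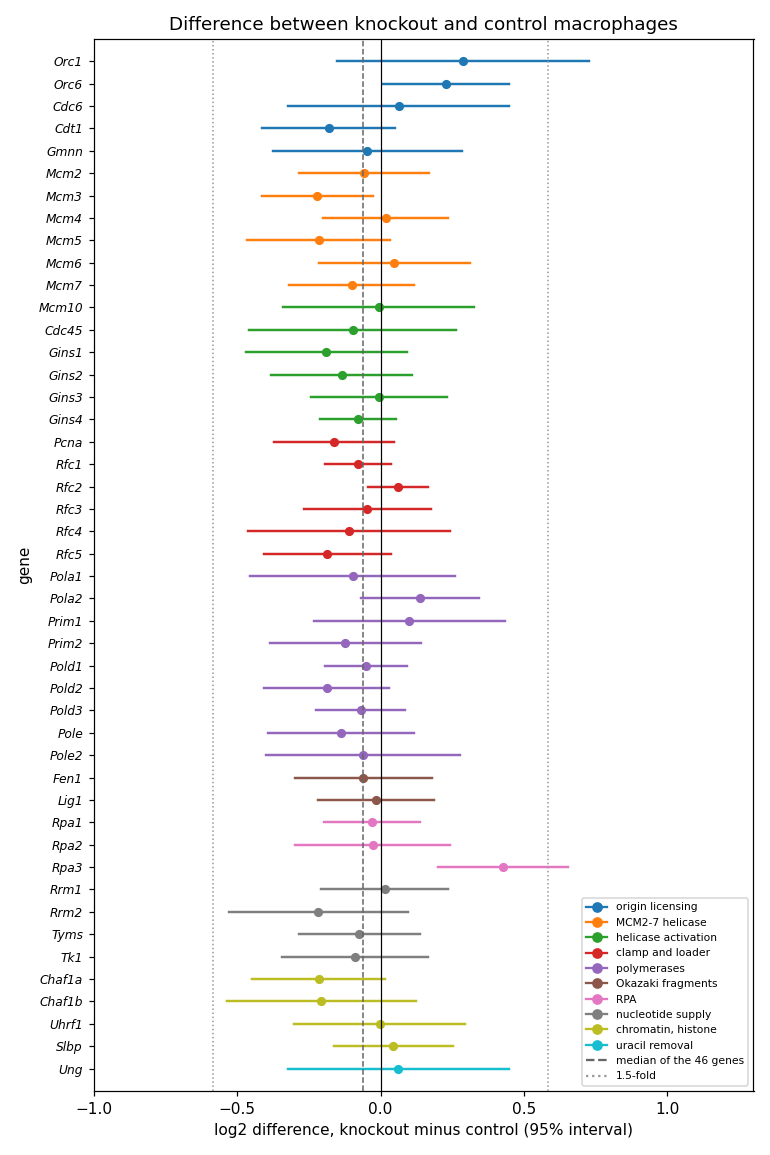
Log2 difference of each of the 46 replication genes, knockout minus control, with its 95% interval from limma, coloured by role. Intervals of 44 genes stay between the dotted lines at 1.5-fold, and Rpa3 stands apart to the right at 0.43.

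The licensing factors, which mark and load origins, had a median log2 difference of 0.06 over 5 genes. Orc6, a subunit of the origin recognition complex, measured 465, 524, 486 and 503 normalised counts in knockout replicates 1 to 4 and 477, 459, 385 and 374 in control replicates 1 to 4. Of the knockout libraries only replicate 1 lay inside the control range. The log2 difference was 0.23 (SE 0.10, limma adjusted p = 0.222). Without knowledge of strand in the counting, Orc6 reads cannot be fully told from those of Vps35, with which it shares 171 exonic bases on the opposite strand. Orc1, the ATPase subunit of the same complex and the least abundant member, ran from 52.1 to 63.7 in the knockout and from 32.9 to 54.0 in the control libraries.

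Cdc6 and Cdt1 bring the MCM ring to the origin complex. Cdc6 had 232, 253, 336 and 227 normalised counts in the knockout libraries, against 299.6, 281, 199 and 224 in the controls, with overlapping groups and knockout replicate 3 highest. Cdt1 had 965, 1053, 1188 and 921 in the knockout libraries, against 1359.7, 1139, 1128 and 1048 in the controls. Control replicate 1 was again highest, and the log2 difference of -0.18 (limma adjusted p = 0.352) was -0.11 without that library. Gmnn, which encodes the Cdt1 inhibitor geminin, had 479.8, 609.9, 715 and 638 in the knockout libraries, against 732, 667, 616 and 505 in the controls. Both groups spread widely and overlapped.

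The MCM2-7 genes encode the ring of the replicative helicase, and their median log2 difference was -0.08 over 6 genes, with 4 negative. Mcm3 measured 2257, 2479, 2763 and 2181 normalised counts in knockout replicates 1 to 4 and 3137, 2708, 2694 and 2713 in control replicates 1 to 4. All knockout libraries but replicate 3 lay below every control, while replicate 3 lay above 3 of the controls. Its log2 difference was -0.22 (SE 0.09, limma unadjusted p = 0.0296, adjusted p = 0.187), and -0.17 without control replicate 1 (adjusted p = 0.324). Mcm5, its neighbour in the ring, had 1879, 1867, 2248 and 1717 in the knockout libraries, against 2709, 2058, 2156 and 2050.5 in the controls. Without control replicate 1, the Mcm5 difference of -0.22 (limma adjusted p = 0.298) became -0.12.

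Mcm6, the most abundant of the ring transcripts, measured 2933, 3380.2, 3779 and 3218 normalised counts in the knockout libraries, against 4007, 2954, 3132 and 2844 in the controls. All knockout libraries but replicate 1 lay above control replicates 2 to 4, and control replicate 1 was the highest of all 8 libraries. The other ring subunits overlapped as well: Mcm2 ran from 1531 to 1909.9 in the knockout and from 1605 to 2045 in the control libraries. Mcm4 ran from 1135 to 1455 in the knockout and from 1161 to 1442 in the control libraries. Mcm7 ran from 1609.5 to 1955 in the knockout and from 1704 to 2174 in the control libraries. Exons pooled over all annotated Mcm7 transcripts overlap Mir25 and Mir93, which does not place these microRNAs in the main Mcm7 message. The pooled exons share 321 bases with Ap4m1 on the opposite strand, so the Mcm7 level is uncertain to that extent. The ring is built from 1 copy of each subunit, yet the transcripts were far from equal per length of the principal transcript. Which transcripts the cells made was not checked, and the level per length depends on that. Per kilobase of principal transcript, Mcm6 averaged 1144 ± 121 in the knockout and 1111 ± 182 in the control group (SD, n = 4 each), while Mcm4 averaged 359 ± 39.3 in the knockout and 354 ± 35.1 in the control group.

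Promoters of some ring genes and of other members showed a feature that the gene list did not use. RefSeq promoters, 250 bases before to 50 after the annotated start, were found for 38 of the 46 members and searched on both strands for the E2F words TTTCCCGC, TTTGGCGC and TTTCGCGC. At least 1 word was present for 15 of the 38 members (39.5%), against 438 of the 11904 tested genes with a promoter (3.68%) and 2.12% of all genes in the table. Of 21 matches, 13 began between 100 bases before and 50 after the start. That stretch is a large part of the 300 bases searched, and the same share was not taken for the tested genes. At least 2 words stood in a promoter of Mcm3, Mcm5, Mcm6, Mcm7 and Rfc3, and overlapping words on opposite strands were counted separately. Among the ring genes, the promoter of Mcm2 and another promoter of Mcm7 held none of the words, and no promoter was at hand for Mcm4. Mcm3 and Mcm6 are shown because they carry the words and yet lay at opposite ends of the ring genes in their differences, with the words in capitals, on GRCm38.p6.
Mcm3, chr1:20820263-20820562, minus strand: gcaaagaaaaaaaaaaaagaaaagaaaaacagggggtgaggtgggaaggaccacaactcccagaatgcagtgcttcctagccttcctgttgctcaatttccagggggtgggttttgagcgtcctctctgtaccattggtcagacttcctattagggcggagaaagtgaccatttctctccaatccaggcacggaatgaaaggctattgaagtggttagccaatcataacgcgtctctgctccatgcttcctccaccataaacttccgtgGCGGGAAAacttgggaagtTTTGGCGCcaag
Mcm6, chr1:128359656-128359955, minus strand: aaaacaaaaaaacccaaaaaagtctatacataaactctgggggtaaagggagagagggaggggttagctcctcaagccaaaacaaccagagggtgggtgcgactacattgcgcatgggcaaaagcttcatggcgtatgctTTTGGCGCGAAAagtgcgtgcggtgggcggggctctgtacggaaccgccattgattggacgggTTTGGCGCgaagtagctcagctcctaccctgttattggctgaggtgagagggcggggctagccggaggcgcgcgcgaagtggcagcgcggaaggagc
In Mcm3 the words begin 20 and 39 bases after the start, and in Mcm6 they begin 110, 106 and 47 bases before it. The word CCAAT was found for 24 of the 38 members (63.2%), against 42.8% of the tested genes. Members with and without an E2F word had median log2 differences of -0.05 (n = 15) and -0.06 (n = 23). A match is a run of letters and shows no binding.

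The factors that switch the helicase on had a median log2 difference of -0.09 over 6 genes, with 0 at an unadjusted p under 0.05 in limma. All 6 differences were negative, but those of Mcm10 (-0.007) and Gins3 (-0.005) were close to none. Without control replicate 1, the control means of Mcm10 (311) and Cdc45 (213) lay below the knockout means (334 and 217). Gins3 was then level at 178 in both groups, while Gins1, Gins2 and Gins4 stayed lower in the knockout group. Cdc45, which joins MCM and GINS in the active helicase, had 203, 219.8, 246 and 200.3 normalised counts in the knockout libraries, against 306, 197, 250.1 and 191 in the controls. The controls enclosed every knockout value, and control replicate 1 was highest. Mcm10, which helps the helicase to start, ran from 294 to 401 in the knockout and from 267 to 414 in the control libraries. Of the 4 GINS subunits, Gins1 ran from 195 to 261 in the knockout and from 235 to 303 in the control libraries. Gins2 ran from 496 to 660.0 in the knockout and from 590.0 to 755 in the control libraries, and shares 2758 exonic bases with Gse1 on the opposite strand. Gins3 and Gins4 differed less between libraries, Gins3 chiefly in the knockout group. Gins3 averaged 178 ± 8.41 in the knockout and 179 ± 18.6 in the control group, and Gins4 averaged 972 ± 45.6 in the knockout and 1026 ± 43.0 in the control group (SD, n = 4 each).

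The sliding clamp and its loader had a median log2 difference of -0.09 over 6 genes, of which 5 were negative. Pcna, the clamp that holds polymerases on DNA and the most abundant member, measured 7257, 7936, 8742 and 8065 normalised counts in knockout replicates 1 to 4 and 10682, 8384, 8262 and 8609 in control replicates 1 to 4. Knockout replicate 3 lay above 3 of the controls, and control replicate 1 lay above all other libraries. The log2 difference was -0.16 (SE 0.09, limma adjusted p = 0.352), and -0.08 without control replicate 1. Rfc5, a small subunit of the clamp loader, had 512, 560.4, 599 and 494 in the knockout libraries, against 712, 613, 549 and 595 in the controls, and knockout replicates 2 and 3 lay above control replicate 3. Its log2 difference was -0.19 (limma adjusted p = 0.314), and -0.12 without control replicate 1. Of the other loader subunits, Rfc4 ran from 196 to 233 in the knockout and from 197 to 319 in the control libraries. Rfc1 and Rfc2 held steady across libraries: Rfc1 averaged 2183 ± 107 in the knockout and 2303 ± 59.9 in the control group, and Rfc2 averaged 1529 ± 42.3 in the knockout and 1466 ± 35.3 in the control group (SD, n = 4 each). Rfc5, Rfc2 and Rfc4 share 499, 952 and 194 exonic bases with Wsb2, Lat2 and Eif4a2 on the opposite strands.

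The replicative polymerases had a median log2 difference of -0.07 over 9 genes, of which 7 were negative. Pola1, the catalytic subunit of the priming polymerase alpha, measured 618, 813, 838 and 784 normalised counts in the knockout libraries, against 1115, 757, 698 and 734 in the controls. All knockout libraries but replicate 1 lay between control replicate 1 and the other controls. Pole, the catalytic subunit of the leading-strand polymerase epsilon, had 513, 636, 669 and 530.1 in the knockout libraries, against 754, 616, 610.4 and 601 in the controls, where control replicate 1 again stood above the rest. Pold2, an accessory subunit of the lagging-strand polymerase delta, had 621, 459, 555 and 516 in the knockout libraries, against 643, 589, 582 and 625 in the controls. Knockout replicates 2 to 4 lay below all controls, and the log2 difference of -0.19 (SE 0.10, limma adjusted p = 0.302) was -0.16 without control replicate 1.

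Other polymerase subunits did not all follow that order. Pola2, the second subunit of polymerase alpha, measured 1378, 1181, 1372 and 1398 normalised counts in the knockout libraries, against 1090.3, 1389, 1261 and 1116 in the controls. It was the one member with its lowest value of all 8 libraries in control replicate 1, and it was chosen for naming after its values were seen. Pold1, the catalytic subunit of polymerase delta, ran from 1411 to 1681 in the knockout and from 1568 to 1693 in the control libraries. Pold3 ran from 1394 to 1612 in the knockout and from 1502 to 1763 in the control libraries. The primase subunits overlapped too: Prim1 ran from 309 to 386 in the knockout and from 268 to 431 in the control libraries. Prim2 ran from 377 to 501.1 in the knockout and from 423 to 549 in the control libraries. Pole2 ran from 185 to 213 in the knockout and from 162 to 249 in the control libraries. It shares 245 exonic bases with the protein-coding gene Gm49384 on the same strand, so counting by strand would not separate reads there.

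Rpa3 gave the clearest difference of the machinery. The RPA complex protects single-stranded DNA during replication and repair, and Rpa3 is its smallest subunit. It measured 239, 260.4, 252 and 258 normalised counts in knockout replicates 1 to 4 and 198, 181, 209 and 165 in control replicates 1 to 4. All 4 knockout libraries lay above all 4 controls. The log2 difference was 0.43 (SE 0.10, 95% interval 0.20 to 0.65), with an unadjusted p of 0.00215 and an adjusted p of 0.0541 in limma, just outside the threshold. DESeq2 on the recovered reads called it (adjusted p = 0.0104), as did limma with genes of a mean of at least 50 (adjusted p = 0.0449), but 0 of 8 fits without 1 library did (adjusted p from 0.0765 to 0.119). Its difference was 0.45 without control replicate 1. No annotated exon of another gene overlaps those of Rpa3.

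The other subunits of the same complex gave no such pattern. Rpa2 had 642, 729.7, 824 and 638 normalised counts in the knockout libraries, against 834, 729, 733 and 596 in the controls, and the groups overlapped fully. Rpa1, the large DNA-binding subunit, averaged 2194 ± 157 in the knockout and 2239.9 ± 175 in the control group (SD, n = 4 each). The promoter of Rpa3 is shown beside those of Mcm3 and Mcm6 because it held none of the 3 E2F words, which says only that these letters are absent from this window.
Rpa3, chr6:8259092-8259391, minus strand: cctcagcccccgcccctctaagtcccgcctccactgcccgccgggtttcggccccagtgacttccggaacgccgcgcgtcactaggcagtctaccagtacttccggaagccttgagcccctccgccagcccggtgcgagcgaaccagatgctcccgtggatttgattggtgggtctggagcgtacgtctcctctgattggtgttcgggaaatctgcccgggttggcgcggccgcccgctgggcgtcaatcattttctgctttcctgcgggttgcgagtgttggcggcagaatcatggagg

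**Figure D2:**
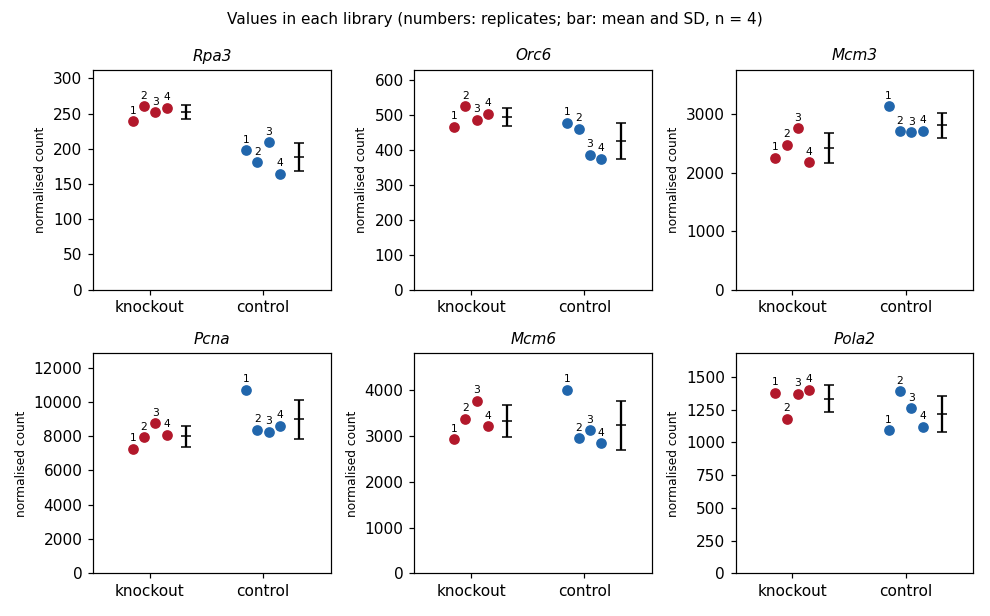
Normalised counts of 6 replication genes in each library, numbered by replicate, with the mean and SD of each group (n = 4). Knockout and control values are apart for Rpa3, while control replicate 1 stands high for Mcm3, Pcna and Mcm6 and lowest for Pola2.

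Processing of Okazaki fragments, the short pieces of the lagging strand, was represented by 2 genes with overlapping groups. Fen1, the nuclease that trims their flaps, had 1011, 1024, 1314 and 1074 normalised counts in the knockout libraries, against 1346, 1059, 1089 and 1110.1 in the controls. The highest knockout and control libraries were replicates 3 and 1, with the rest close together. Lig1, the ligase that seals them, ran from 1571 to 1963 in the knockout and from 1652 to 1993 in the control libraries. Fen1 shares 1909 exonic bases with the antisense gene Gm10143.

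Genes of nucleotide supply had a median log2 difference of -0.08 over 4 genes. Rrm2, the small subunit of ribonucleotide reductase that is made in S phase, measured 563, 660.4, 696 and 579 normalised counts in the knockout libraries, against 959, 623, 690.0 and 665 in the controls. Control replicate 1 was far above the other 7 libraries, which shared a range of 563 to 696. The log2 difference of Rrm2 was -0.22 (SE 0.14, limma adjusted p = 0.408), and -0.08 without that library. Its partner Rrm1 averaged 2265 ± 158 in the knockout and 2255 ± 321 in the control group (SD, n = 4 each). Tyms, the thymidylate synthase, had 541, 592, 625 and 633 in the knockout libraries, against 728, 608, 629 and 560.0 in the controls. The salvage enzyme Tk1, thymidine kinase, had 1121, 1012, 1235 and 959 in the knockout libraries, against 1397, 1037, 1073 and 1106 in the controls. In both genes the groups overlapped and control replicate 1 was highest.

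Genes that package new DNA had a median log2 difference of -0.10 over 4 genes. Chaf1a, the large subunit of the chromatin assembly factor that places histones behind the fork, had 838, 702, 992 and 822 normalised counts in the knockout libraries, against 1067, 931, 923 and 953 in the controls. All knockout libraries but replicate 3 lay below all controls, and replicate 3 lay above 3 of them. Its log2 difference was -0.22 (SE 0.10, limma adjusted p = 0.270) and -0.17 without control replicate 1, and it shares 4648 exonic bases with Ubxn6 on the opposite strand, so its reads cannot be fully told from that gene. Its partner Chaf1b ran from 284 to 425 in the knockout and from 327 to 422 in the control libraries. Uhrf1, which recruits DNA methylation to new strands, had 965, 1079, 1276 and 938 in the knockout libraries, against 1330.2, 968, 1037 and 943 in the controls. Slbp, which binds the stem-loop of histone messages, had 1189.9, 1347, 1387 and 1355 in the knockout libraries, against 1526, 1211, 1206 and 1193 in the controls. Ung, which removes uracil from DNA, had 177, 187, 219 and 177 in the knockout libraries, against 230.0, 186, 192 and 131 in the controls. The groups of Uhrf1, Slbp and Ung overlapped, and control replicate 1 was the highest of all 8 libraries for each.

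**Figure D3:**
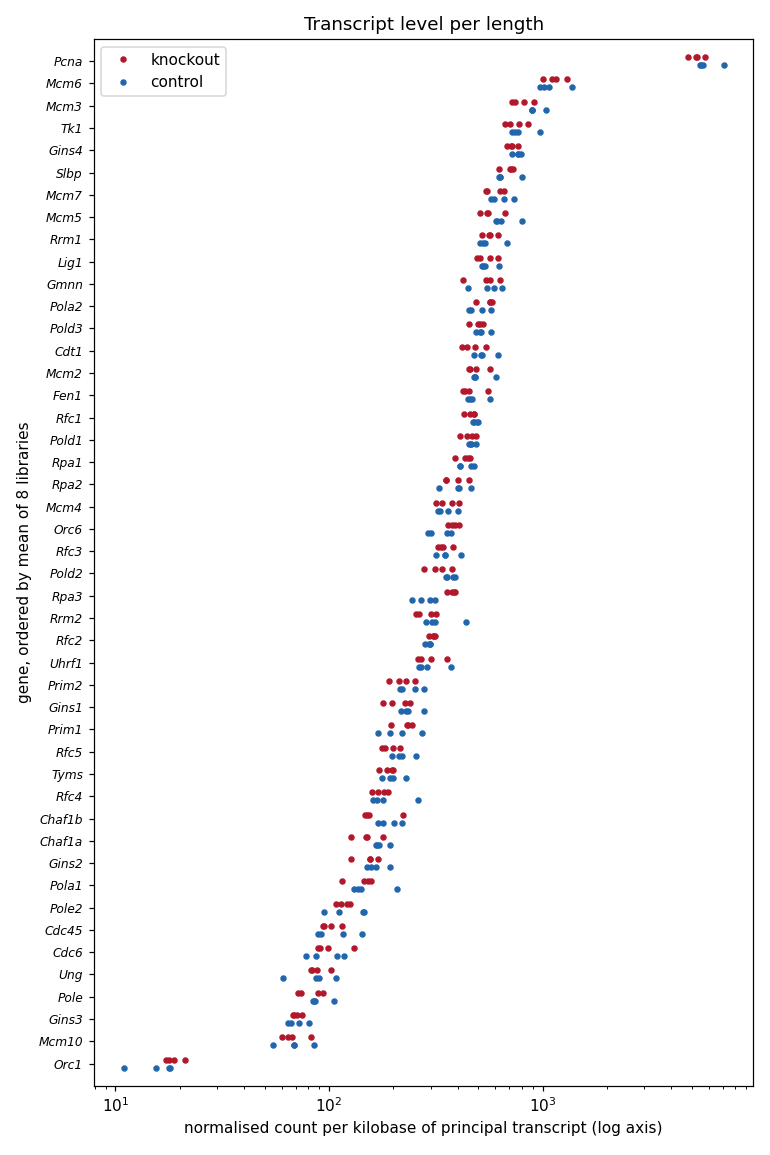
Normalised counts per kilobase of principal transcript for the 46 genes on a log axis, 1 point per library, with genes ordered by their mean. Pcna lies far above the rest, near 5270.1 in the knockout and 5919 in the control group, and Orc1 lies at the bottom.

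Per length, the machinery was expressed over a wide range and in a similar order in both groups. Levels are normalised counts per kilobase of the principal GENCODE M21 transcript, and would change where the cells made another transcript. Pcna stood alone at 5270.1 ± 401 in the knockout and 5919 ± 752 in the control group (SD, n = 4 each). Mcm6 came next, followed by Mcm3 at 798 ± 86.3 in the knockout and 928 ± 71.3 in the control group. The next genes, Tk1, Gins4 and Slbp, averaged 751 ± 85.0, 721 ± 33.8 and 692 ± 46.3 in the knockout group, so that neighbours in this order differed by less than 1 standard deviation. At the lower end stood Pole, Gins3 and Mcm10, between 68.5 and 82.0 in the knockout and between 69.2 and 90.1 in the control group. Orc1 was lowest at 18.8 ± 1.72 in the knockout and 15.5 ± 3.29 in the control group. Subunits of 1 complex had unequal transcript levels, as in GINS, where Gins4 averaged 721 in the knockout group and Gins3 averaged 70.5.

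**Figure D4:**
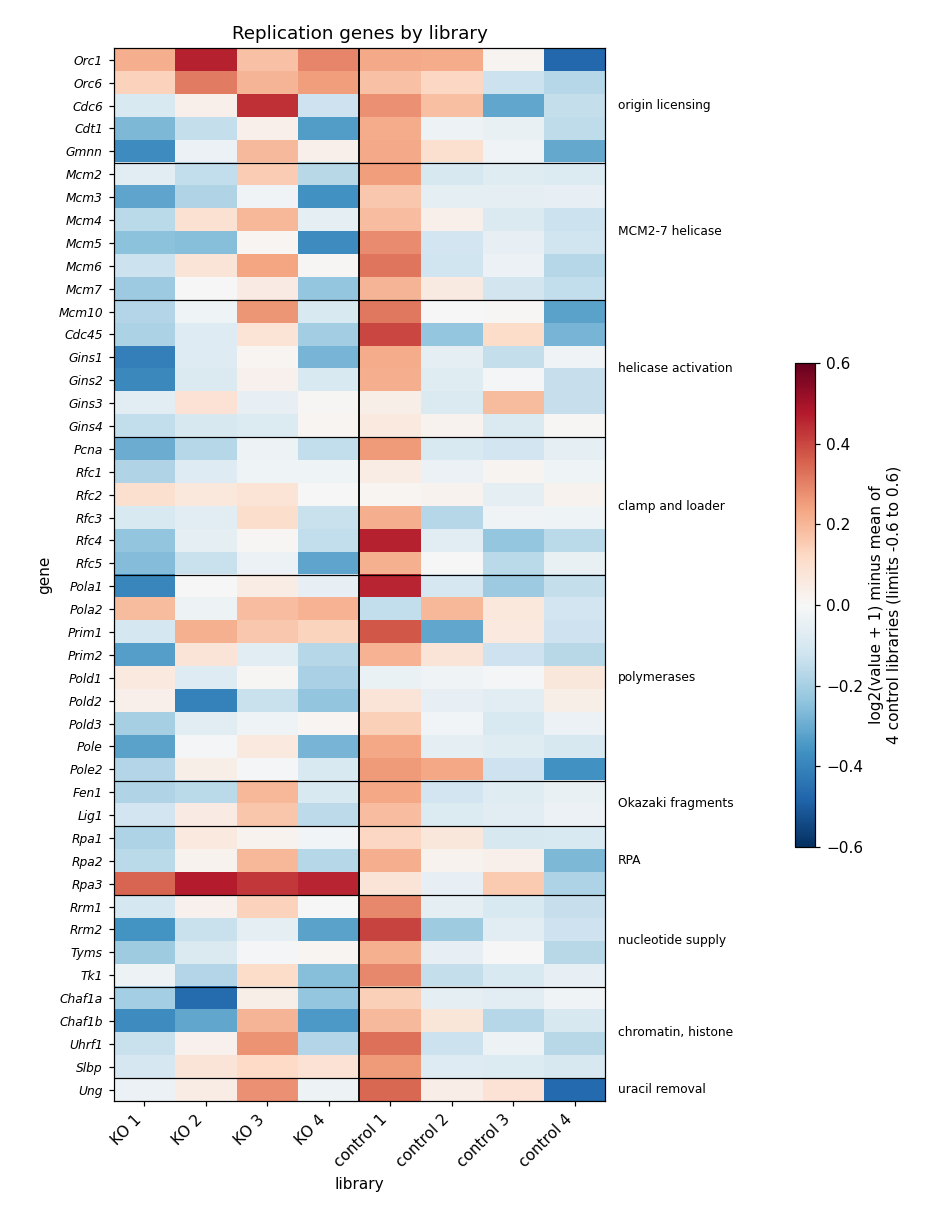
Each gene in each library as log2(value + 1) minus the mean of the 4 control libraries, with genes grouped by role. Control replicate 1 is red for most genes, with a median of 0.22, and Rpa3 is red in all 4 knockout libraries.

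The spread between libraries was shared by most of the machinery. Relative to the control mean, the median of the 46 genes on the log2 scale was -0.18, -0.03, 0.07 and -0.11 in knockout replicates 1 to 4, and 0.22, -0.05, -0.07 and -0.12 in control replicates 1 to 4. Control replicate 1 was thus the highest library and knockout replicate 1 the lowest, and the medians of knockout replicates 2 to 4 lay within the range of the controls. In control replicate 1, 44 of the 46 members (95.7%) exceeded the mean of the other 3 controls, against 47.3% of all genes tested, with a median ratio of 1.22. The ratio was largest for Rfc4 (1.53) and Pola1 (1.53), followed by Rrm2 (1.46), Cdc45 (1.44) and Prim1 (1.41). It ran from 1.16 to 1.35 in the MCM ring. Rfc2 (1.01), Gins3 (1.03), Rfc1 (1.04), Gins4 (1.05), Rpa3 (1.07) and Pold2 (1.07) were near 1, and Pold1 (0.962) and Pola2 (0.869) were below it.

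In the knockout group 1 library also stood highest for most members, by a smaller margin. Its replicate 3 was the highest of its group for 30 members, and 41 of the 46 (89.1%) exceeded the mean of the other 3, against 50.9% of all genes, with a median ratio of 1.15. Knockout replicate 1 was the lowest of its group for 27 members and the lowest of all 8 libraries for 18. Members with an E2F word in the promoter had a median ratio of control replicate 1 to the other controls of 1.22, and members without one had 1.24.

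Markers of dividing cells, which act later in the cycle than most of the machinery, ran with it across libraries. Of 12 such markers 0 passed limma, 0 had an unadjusted p under 0.05, and their median log2 difference was -0.07. Mki67, the nuclear antigen of cycling cells, measured 3224, 3485, 4208 and 3419 normalised counts in the knockout libraries, against 5556, 3540.2, 3943 and 3366 in the controls. Top2a, the topoisomerase that untangles replicated chromosomes, had 1779.6, 1995, 2590.2 and 2139.6 in the knockout libraries, against 3258, 2126, 2156 and 2002 in the controls. Both were highest in control replicate 1 and, within the knockout group, in replicate 3. The medians of the 12 markers relative to the control mean were -0.31, -0.06, 0.17 and -0.08 in knockout replicates 1 to 4, and 0.37, -0.09, -0.01 and -0.27 in control replicates 1 to 4. Control replicate 1 was the highest of all 8 libraries for 9 of the 12.

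Markers of other cell types mostly had positive differences, knockout minus control, and also moved between libraries. The median log2 difference was 0.35 for the fibroblast and 0.51 for the endothelial markers, with all 7 positive in each list. At an unadjusted p under 0.05 in limma stood 2 fibroblast and 4 endothelial markers, against 21.2% of all genes tested, and 0 were called after adjustment. The 7 fibroblast markers were highest in the same libraries of each group as the replication genes, with medians relative to the control mean of 0.10, 0.23, 0.70 and 0.37 in knockout replicates 1 to 4, and 0.62, -0.17, -0.20 and -0.33 in control replicates 1 to 4. Their summed level ran from 128127 to 199164 in the knockout and from 94056.5 to 161145 in the control libraries, and 0 of 7 passed. The 7 endothelial markers had medians of 0.76, 0.32, 0.23 and 0.71 in knockout replicates 1 to 4, and -0.44, 0.39, 0.25 and -0.17 in control replicates 1 to 4. In the knockout group their order was the reverse of that of the replication genes, with replicate 3 lowest. Among the controls they were lowest in replicate 1, where the replication genes were highest, while replicate 4 was low in both lists. Summed endothelial levels ran from 90998.7 to 131730.0 in the knockout and from 57626.1 to 98892.9 in the control libraries. Markers of T and NK cells, B cells, adipocytes, dendritic cells and neutrophils had median log2 differences of 0.70, 0.53, 0.39, 0.50 and 0.09, with 0 called in each list. All differences in these lists were positive except that 1 of the 5 neutrophil markers was negative. The part of these cells in the levels of the replication genes was not tested.

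**Figure D5:**
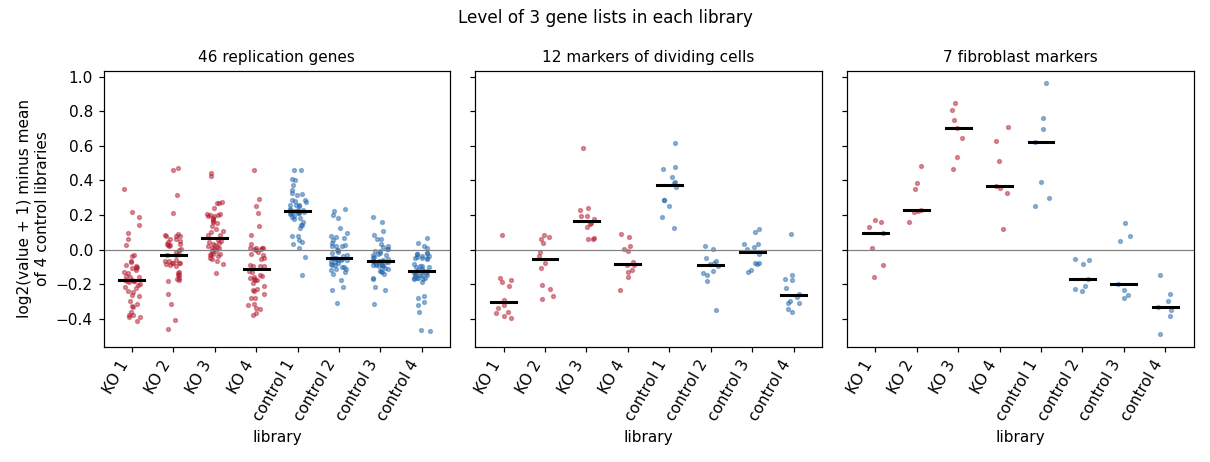
Level of the 46 replication genes, 12 markers of dividing cells and 7 fibroblast markers in each library, as log2(value + 1) minus the mean of the 4 control libraries, with 1 point per gene and a bar at the median. In all 3 lists control replicate 1 is the highest control and knockout replicate 3 the highest knockout library.

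Other genes of DNA replication, a list of 55 that act beside the 46, gave 1 gene that rose and 0 that fell, beside the background of 3.61% called among all genes tested, and had a median log2 difference of -0.03. Top1, the topoisomerase that relieves twist ahead of forks and in transcribed genes, measured 3038, 3389, 3342 and 3653 normalised counts in knockout replicates 1 to 4 and 2778, 2487, 2548 and 2437 in control replicates 1 to 4. The groups did not overlap, and the log2 difference was 0.39 (SE 0.07, limma adjusted p = 0.0213). The call was lost in 5 of 8 fits that left out 1 library, without knockout replicate 2, 3 or 4 or control replicate 3 or 4 (limma adjusted p from 0.0522 to 0.0661). The genes with the next smallest p did not pass. Dck, a salvage kinase for deoxynucleosides, ran from 676 to 919 in the knockout and from 877 to 1119 in the control libraries (limma adjusted p = 0.230). Timeless, of the fork protection complex, ran from 1092 to 1435 in the knockout and from 926 to 1249 in the control libraries (limma adjusted p = 0.234). Ssrp1, a histone chaperone subunit, ran from 4311 to 4877 in the knockout and from 4968 to 5576 in the control libraries, without overlap (limma adjusted p = 0.236).

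Among 10 genes that govern entry into S phase, 1 was called lower, 0 were called higher and 9 did not pass, with a median log2 difference of -0.19. A single call in so short a list is read against that same 3.61%. The difference was negative for 8 of the 10 and positive for 2. In limma 4 had an unadjusted p under 0.05, against 21.2% of all genes tested. Groups did not overlap for 3, against 13.7% of all genes. E2f1, the transcription factor that drives many replication genes, had 1278, 1298, 1448 and 1346 normalised counts in the knockout libraries, against 1852, 1528, 1658 and 1656 in the controls. Every knockout value lay below every control value, and the log2 difference was -0.32 (SE 0.07, limma adjusted p = 0.0447). The call held in 1 of 8 fits that left out 1 library, the one without control replicate 2 (limma adjusted p = 0.0420), and elsewhere adjusted p ran up to 0.122. Skp2, the ubiquitin ligase subunit that removes the inhibitor p27, had 442, 507, 466 and 424 in the knockout libraries, against 632, 514, 583 and 594 in the controls. Its groups also stood apart, at a log2 difference of -0.34 (limma adjusted p = 0.0748). E2f3 ran from 584 to 679 in the knockout and from 699 to 735 in the control libraries, without overlap (limma adjusted p = 0.137). E2f2 ran from 146 to 226 in the knockout and from 204 to 238 in the control libraries (limma adjusted p = 0.204). Of the 15 members with an E2F word 0 passed, which follows from the 0 called among all 46 and adds nothing to it.

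Seed matches of the deleted microRNAs were looked for in 3′ untranslated regions, taking the longest one that GENCODE M21 gives for a gene on mm10. A match of 7 bases to any of the 3 seeds was found for 13 of the 46 members (28.3%), against 40.9% of the 14776 tested genes with such a region. The median region was 547 bases in the members and 1170 in the tested genes, so the shares cannot be compared without regard to length. Matches were found for 5 members for miR-23, 6 for miR-27 and 4 for miR-24. For Cdc6, Mcm6 and Rfc4 the region searched belongs to a transcript other than the principal one, so these sites may be absent from the main message. Sites of the Mcm genes are shown because these make up 5 of the 13 members, with the match in capitals.
Mcm2, miR-24: tcggtcaccacgCTGAGCCtacgtcacttc
Mcm4, miR-27: cgtacatcctttACTGTGAtatgatgggct
Mcm5, miR-23: tcagcagcacctAATGTGAgaactggatca
Mcm6, miR-27: acattgtgtctcACTGTGAagcccacactg
Mcm10, miR-27: ttccttctgttgACTGTGAttgcagctttt
The sites begin at bases 47, 398, 424, 550 and 475 of their regions in that order. The 13 members with a match had a median log2 difference of -0.06, with 5 positive, and members without one also had -0.06. Over all tested genes the medians with and without a match were 0.01 and -0.01. Rpa3, Mcm3, Orc6 and Pcna had no match in the region searched.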

How the data were processed

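Poly(A)-selected RNA of F4/80-positive adipose tissue macrophages was sequenced from 4 knockout and 4 control samples, per the labels. Groups were taken from the genotype label and replicate numbers from the titles. The authors deposited normalised gene counts, a signal that is never negative, as well as their DESeq2 comparison. Per the file headers, that table lists a mean signal and a log2 fold change with control on top, so its sign is the reverse of the differences given in the report. Its standard errors and test statistics (score columns) and its p-values were deposited too, and only the adjusted p was used. FastQC, cutadapt, Salmon, DESeq2 and the build mm10 are named, with no versions or roles, in the submitters' processing notes. The sources used here do not say whether counting used strand. No column of per-sample values was left unused.

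Within 0.01 reads, 100% of the deposited values were whole multiples of 1 step per library, which gave the recovered reads. In control replicate 4 that step was 0.998, near 1, but the deposited values there were not whole numbers, as in Orc1 (32.9434) and Orc6 (374.357). Symbols that had turned into dates stood on 21 lines. Groups were compared with limma 3.58.1 in R 4.3.3 (eBayes with trend, two-sided) on log2(value + 1) of the 15862 genes whose mean reached 10, adjusted by Benjamini-Hochberg over all of them, at a threshold of 0.05. On this scale the change of low genes is understated. edgeR (4.0.16) and DESeq2 (1.42.0) on recovered reads were alternatives, as were pseudocounts of 0.5 and 5, a mean of at least 50 or no filter, equal library totals, TMM, quantile normalisation, array weights, a replicate block and leaving out each library. The fits were tested on simulated data. Counts of libraries within a group differed by more than sampling noise (at least 8.86 in chi-square units per gene), so each was kept as 1 replicate. Precision follows from the depth and the 4 libraries per group, and intervals are at 95%.

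The 46 genes, the other gene lists and the tests were chosen with earlier results of these data known, so no test of a list was made. Values in every library are given for the 10 members with the smallest limma p, the 3 most abundant and 16 set representatives, and for the 4 genes of smallest p in lists of other replication and S phase entry genes the values or their range. Mki67, Top2a, E2f1 and Lyz2 were also named by rule. Lengths and overlaps came from GENCODE M21, and promoters and microRNAs from RefSeq (GRCm38.p6). For overlaps, exons were pooled over all annotated transcripts of a gene. For 8 members no promoter, and for miR-23b-3p no sequence, was at hand.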

Additional observations from a re-analysis of the deposited data

Results flagged for a closer look

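Among 51 genes examined in both groups, 13 of 102 groups of 4 libraries held a library far from the other 3 for its group's range; chance alone marks about 1 group in 20, and the genes share their libraries. Of the 13, 10 were control replicate 1 at the top of the control group. It held 2044.8 normalised counts of Mcm2, 3136.78 of Mcm3, 2709.49 of Mcm5, 10682.4 of Pcna, 1114.9 of Pola1, 753.909 of Pole, 1993.23 of Lig1, 2732.41 of Rrm1, 1525.83 of Slbp and 3257.93 of Top2a. The same library had the most reads, 46621080, and the highest fibroblast markers of the control group. The part of depth and of other cells in this was not tested. The other 3 were knockout replicate 3, highest of its group for Chaf1b (425.138), knockout replicate 2, lowest of its group for Pola2 (1181.33), and control replicate 3, lowest of its group for Rfc2 (1414.01).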

How the results depend on the processing

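The count of called genes, 573, was 1557 with DESeq2 on recovered reads, 931 with array weights, and 163 to 502 when 1 library was left out. Of the 46 replication genes 1, Rpa3, was called with DESeq2 and 1, again Rpa3, with a mean of at least 50, and 0 under every other alternative run, leaving out each library included. Of the 55 other replication genes 0 or 1 was called when 1 library was left out. With the replicate block 7 genes in all, 0 of the 46 and 0 of the 55 were called, so Top1 (adjusted p = 0.1998) and E2f1 (adjusted p = 0.221) were not. Replicate numbers do not pair the samples: deviations of same-numbered libraries correlated at -0.20, -0.20, -0.04 and -0.29 over genes, and none of the 8 libraries correlated best with the one of its own number in the other group. Equal library totals gave 489 calls, 245 higher and 244 lower (196 and 377 as deposited), moved the median of all genes to 0.06 and that of the 46 to -0.00, with 22 positive and 24 negative, and ended the E2f1 call (adjusted p = 0.0712). The member median turned positive without control replicate 1 (0.02) and with array weights (0.02), and 15 and 12 members changed sign. Log2 differences of the 10 members with the smallest p, of E2f1, Skp2 and Top1 kept their sign throughout. Skp2 passed with DESeq2 (adjusted p = 0.0153) and array weights (adjusted p = 0.0477). With 4 libraries a group, intervals of 44 members ended within 1.5-fold, and differences smaller than that may have been missed.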
